A study of Homo sapiens with 6 samples.

Results

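The urea cycle and gluconeogenesis are described here through 10 genes in HepG2, a long-established human cell line derived from a hepatic tumour. They were taken as the rows of the deposited gene count table whose Ensembl identifiers belong to CPS1, ASS1, ASL, ARG1, NAGS, SLC25A13, PCK1, PCK2, FBP1 and PC, and all 10 were found among 60564 rows with such an identifier. RNA sequencing was done on 6 libraries. The cells of 3 had been given formononetin, a plant isoflavone, for 72 h at a labelled dose of 625 (unit written as μm), and the cells of the other 3, the controls, were labelled with DMEM, the culture medium, alone. Both groups are wild type and of 1 line, no solvent control is named, and the control labels give no time in culture. The design text gives the aim only as profiling gene expression with and without formononetin.

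The urea cycle turns ammonia into urea in hepatocytes. CPS1, activated by the N-acetylglutamate that NAGS makes, joins ammonia and bicarbonate in mitochondria, OTC makes citrulline from the product, and ASS1, ASL and arginase (ARG1) complete the cycle in the cytosol. SLC25A13 (citrin) brings the aspartate used by ASS1 out of mitochondria in exchange for glutamate. Gluconeogenesis makes glucose from lactate, glycerol and amino acids. Pyruvate carboxylase (PC) makes oxaloacetate, the phosphoenolpyruvate carboxykinases PCK1 (cytosolic) and PCK2 (mitochondrial) convert it to phosphoenolpyruvate, and FBP1 removes a phosphate from fructose 1,6-bisphosphate near the end of the path. Liver cell lines often keep these functions only in part.

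Counts on named genes were 30848848 to 36243606 per control library and 37465148 to 45682722 per formononetin library, so depth was higher in every treated library. Values are CPM (counts per 1000000, with library sizes scaled by TMM). Groups were separated on the first principal component (38.93% of variance). On the second (16.53%) control replicate 1 stood apart, at 47.26 against -25.42 to 5.22 in the other libraries. Hepatocyte markers were abundant, with a sum over 10 of 51920 to 53532 CPM in controls and 41765 to 42975 CPM in formononetin libraries. Of the 10, 9 were called lowered (edgeR adjusted p under 0.05), where 8.71% of all genes tested were. The 5 macrophage markers summed to 3.83 to 5.82 against 7.54 to 9.18 CPM with PTPRC at 0 counts in all libraries. CD68 made up most of this sum and was raised, from a mean of 3.35 to 6.73 CPM (log2 fold change 1.01, edgeR adjusted p = 0.0204). The 5 endothelial markers summed to 22.1 to 25.6 against 24 to 28.2 CPM with TEK at 0. Nearly all of this was PECAM1, at means of 23.2 and 25.8 CPM, which was not called. The 6 stellate and fibroblast markers summed to 77.3 to 82.8 against 40.6 to 43.4 CPM, with COL1A2, COL3A1 and DCN at 0 and PDGFRB and ACTA2 lowered. The part of these shifts in the results below was not tested. In bulk RNA, fewer cells expressing a gene and less of its RNA per cell cannot be told apart.

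Formononetin libraries held more transcript of PC, which opens gluconeogenesis from pyruvate, and of PCK1, the scarce cytosolic carboxykinase. PC rose by 0.92 ± 0.08 on the log2 scale (SE, a 1.89-fold rise). PCK1 rose by 1.27 ± 0.24 (2.4-fold), from a mean of 0.88 to 2.13 CPM. Nearly all carboxykinase transcript was PCK2, with a mean of 181 CPM without formononetin and 194 CPM with it, and PCK2 was not called. ASL, of the urea cycle, fell slightly (-0.20 ± 0.05). The other 6 tested members, CPS1, ASS1, ARG1, NAGS, SLC25A13 and PCK2, were not called, with log2 fold changes from -0.11 to 0.16. FBP1 had too few counts to be tested. Calls are those of edgeR's quasi-likelihood test, two-sided, with Benjamini-Hochberg adjusted p under 0.05 over all 22230 genes tested. Thus 2 of 9 tested members were raised, where 12.0% of all genes tested were, and 1 was lowered, where 8.71% were. Members were chosen with earlier results of these data known, so these shares do not test the pathways. The median log2 fold change was 0.14 over the tested members and -0.01 over all genes tested. In 6 of the 9 the groups did not overlap in CPM, as in 39.4% of all genes tested. Formononetin libraries were the higher in 5 of these (20.8% of all genes) and the lower in 1 (18.7%). ASS1, SLC25A13 and PCK2, among the 5, were not called, and their log2 fold changes were 0.07, 0.08 and 0.02 under upper quartile scaling.

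**Figure D1:**
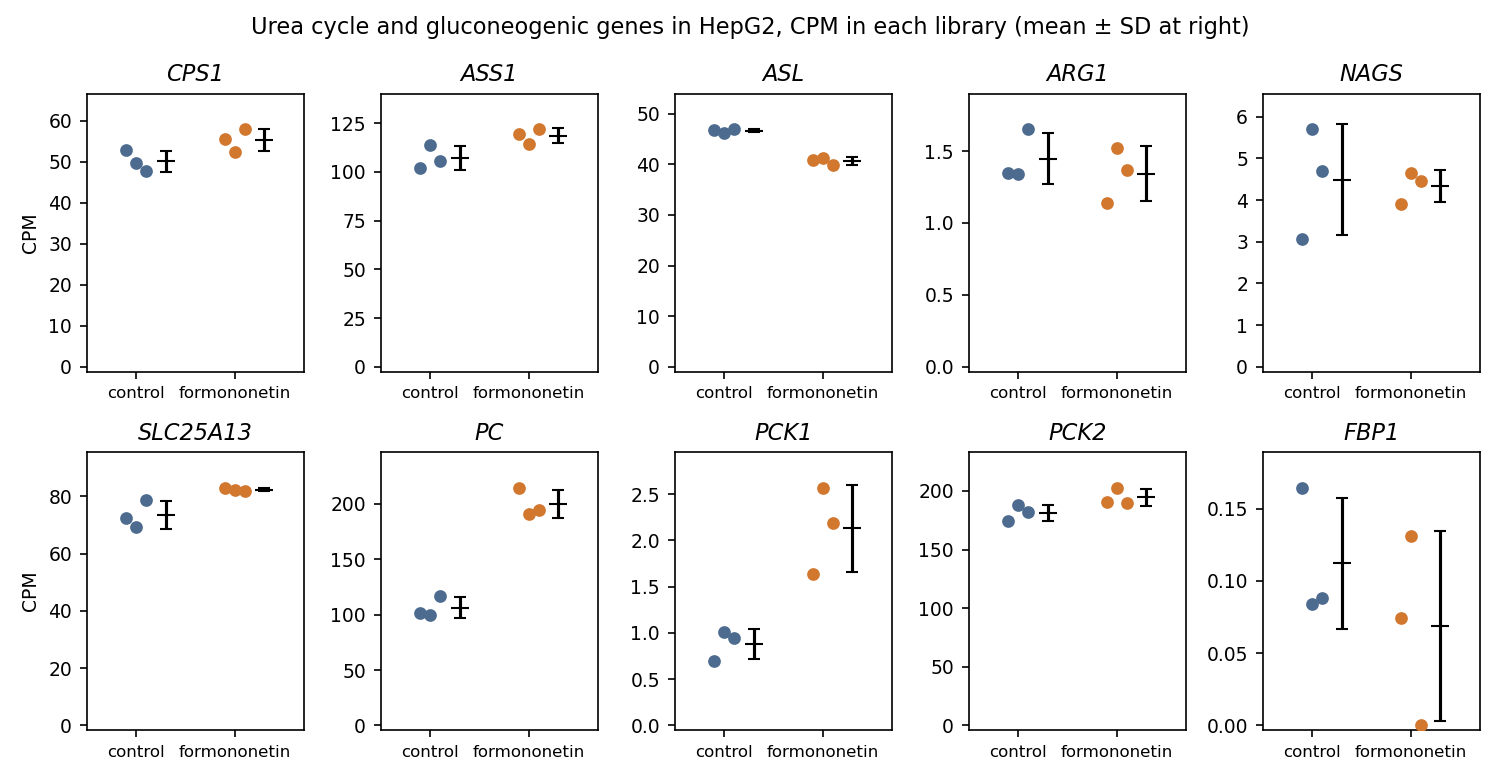
CPM of each member (vertical axis, linear from 0, a separate scale per gene) in the 3 control (blue) and 3 formononetin (orange) libraries, with mean ± SD in black. PC and PCK1 show the widest separation, ASL a small downward step, and FBP1 lies between 0 and 0.165 CPM throughout.

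The starts of PC and ASL are shown because PC is the abundant member that rose and ASL the one that fell. RefSeq (GRCh38.p14) gives 3 starts for PC on the minus strand, and the gene-level count does not tell them apart. The runs are the 250 bases before each start, 5′ to 3′ on the gene's strand, with CCAAT boxes (CCAAT or its reverse complement ATTGG) and GC boxes (GGGCGG or CCGCCC) in capitals. The PC windows are chr11:66958384-66958633, chr11:66907954-66908203 and chr11:66906035-66906284, and the ASL window, on the plus strand, is chr7:66075569-66075818.
PC start 1: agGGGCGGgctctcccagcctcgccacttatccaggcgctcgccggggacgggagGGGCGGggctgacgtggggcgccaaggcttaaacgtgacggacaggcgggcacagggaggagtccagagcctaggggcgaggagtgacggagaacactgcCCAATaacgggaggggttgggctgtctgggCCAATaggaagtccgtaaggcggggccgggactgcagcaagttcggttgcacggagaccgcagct
PC start 2: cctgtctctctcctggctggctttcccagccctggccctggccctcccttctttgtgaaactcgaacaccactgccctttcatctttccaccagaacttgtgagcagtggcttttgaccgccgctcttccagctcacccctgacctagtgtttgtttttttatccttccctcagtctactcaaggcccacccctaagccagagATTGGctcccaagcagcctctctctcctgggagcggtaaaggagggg
PC start 3: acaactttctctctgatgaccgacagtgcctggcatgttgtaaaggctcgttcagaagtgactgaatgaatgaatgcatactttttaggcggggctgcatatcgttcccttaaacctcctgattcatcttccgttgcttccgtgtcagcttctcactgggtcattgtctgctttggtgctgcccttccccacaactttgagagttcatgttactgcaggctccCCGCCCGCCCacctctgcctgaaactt
ASL: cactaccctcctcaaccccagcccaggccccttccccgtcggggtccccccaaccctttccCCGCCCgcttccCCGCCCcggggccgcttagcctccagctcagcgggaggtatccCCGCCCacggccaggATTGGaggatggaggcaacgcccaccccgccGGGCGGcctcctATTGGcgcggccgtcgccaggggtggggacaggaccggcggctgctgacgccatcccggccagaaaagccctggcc

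The outermost PC window was 67.6% G and C with 21 CpG, and held CCAAT 95 and 65 bases before the start and GC boxes at 248 and 195. The inner windows were 56.4% and 50.4% G and C, the second with ATTGG at 47 and the third with overlapping GC boxes at 27 and 23. The ASL window was 74% G and C, with 4 GC boxes and 2 ATTGG matches. CCAAT boxes stood in 32.04% and GC boxes in 42.55% of 34943 RefSeq windows of the same length, so neither is particular to these genes. Over the 14 windows of the 9 members with a window (PCK1 has none), GC boxes were in 9 windows, from 7 members. CCAAT boxes were in 6 windows, from 5 members. The cyclic AMP response element TGACGTCA (1.634% of all windows) and the core of the aryl hydrocarbon receptor element, TNGCGTG (4.519%), were in none of the 14. The antioxidant response element core TGACNNNGC (10.91%) was found for SLC25A13 alone, and the E-box CACGTG (6.322%) for CPS1, ASS1 and SLC25A13. Both strands were searched. These are matches of letters only.

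CPS1, the mitochondrial entry enzyme (ENSG00000021826, chromosome 2, 210477682 to 210679107, GRCh38), was at 52.9, 49.6 and 47.8 CPM in control replicates 1 to 3 and 55.5, 52.5 and 58.0 CPM in formononetin replicates 1 to 3. The groups overlapped, since control replicate 1 lay above formononetin replicate 2. Means were 50.1 ± 2.59 and 55.3 ± 2.74 CPM (SD, n = 3), a log2 fold change of 0.14 ± 0.06 that was not called (edgeR adjusted p = 0.164). NAGS, which makes the activator of CPS1 (ENSG00000161653, chromosome 17, 44004546 to 44009063), was at 3.06, 5.70 and 4.69 CPM in controls and 3.90, 4.64 and 4.46 CPM in formononetin libraries. Control replicate 1 was the lowest and control replicate 2 the highest of all 6, and the formononetin libraries lay between them. Its change was -0.05 ± 0.22 (edgeR adjusted p = 0.899) and its sign was not stable, at 0.16 without control replicate 2, 0.01 without formononetin replicate 1 and -0.26 without control replicate 1.

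ASS1, which joins citrulline and aspartate (ENSG00000130707, chromosome 9, 130444929 to 130501274), was at 102, 114 and 106 CPM in controls and 119, 114 and 122 CPM in formononetin libraries. The groups did not overlap, but control replicate 2 (113.8 CPM) nearly reached formononetin replicate 2 (114.3 CPM). The change of 0.14 ± 0.06 was not called (edgeR adjusted p = 0.11). ASS1 has processed copies elsewhere in the genome. Counts were present for 7 of the 14 listed, and adding them to ASS1 left the change at 0.14 (edgeR adjusted p = 0.12).

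ASL, which splits argininosuccinate into arginine and fumarate (ENSG00000126522, chromosome 7, 66075798 to 66093558), was at 46.8, 46.2 and 46.9 CPM in controls and 40.9, 41.2 and 39.8 CPM in formononetin libraries. Replicates lay close together and the groups did not overlap. Means were 46.7 ± 0.372 and 40.6 ± 0.738 CPM (n = 3), a change of -0.20 ± 0.05 with edgeR adjusted p = 0.0289. The direction held in all 16 alternatives (-0.28 to -0.16), but the call was lost in each of the 6 fits that left out 1 library (adjusted p 0.062 to 0.0881), under library total scaling (0.0888), without a low-count filter and with a replicate block. A gene model with few counts shares 563 exon bases with ASL on the same strand, and the sum of both changed by -0.21 (edgeR adjusted p = 0.0204).

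ARG1, the cytosolic arginase of hepatocytes (ENSG00000118520, chromosome 6, 131573144 to 131584332), was scarce, with 41, 48 and 56 counts in control and 46, 58 and 62 in formononetin libraries. This came to 1.35, 1.34 and 1.65 CPM against 1.14, 1.52 and 1.37 CPM. The groups overlapped (-0.11 ± 0.19, edgeR adjusted p = 0.747). SLC25A13, the aspartate-glutamate carrier (ENSG00000004864, chromosome 7, 96120220 to 96322147), was at 72.5, 69.3 and 78.9 CPM in controls and 83.0, 82.1 and 82.0 CPM in formononetin libraries. All formononetin libraries lay above all controls, but the difference of 0.16 ± 0.06 was not called (edgeR adjusted p = 0.0902). It was called under library total scaling (0.21, adjusted p = 0.0459) and without control replicate 3 (0.22, adjusted p = 0.0441). Over CPS1, ASS1, ASL, ARG1, NAGS and SLC25A13, the summed level was 283 ± 4.02 CPM in controls and 303 ± 5.71 CPM in formononetin libraries (n = 3, exact permutation p = 0.1, two-sided, the smallest that 3 against 3 allow). The size of this difference of 19.1 CPM rested on the scaling, at 3.02 CPM (exact permutation p = 0.4, two-sided) under upper quartile and 27.7 CPM under library total scaling.

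Of the gluconeogenic members, PC (ENSG00000173599, chromosome 11, 66848233 to 66958376) was at 101, 100.1 and 117 CPM in controls and 215, 191 and 195 CPM in formononetin libraries. The lowest formononetin library lay far above the highest control. Means were 106 ± 9.44 and 200.3 ± 12.6 CPM (n = 3), a log2 fold change of 0.92 ± 0.08 with edgeR adjusted p = 0.00044. It was called in all 16 alternatives, with changes of 0.84 to 0.99 and adjusted p up to 0.00503. Besides gluconeogenesis, PC refills the citric acid cycle and supplies oxaloacetate for export as citrate in lipid synthesis. LRFN4 lies on the opposite strand within PC and shares 621 exon bases with it, with 2594 counts over the 6 libraries against 35399 for PC.

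PCK1, the cytosolic carboxykinase, a hormone-controlled enzyme of fasting liver (ENSG00000124253, chromosome 20, 57561080 to 57568112), was scarce. It had 21, 36 and 32 counts in control and 66, 98 and 99 in formononetin libraries, or 0.691, 1.01 and 0.944 CPM against 1.64, 2.57 and 2.19 CPM. The groups did not overlap. Means were 0.88 ± 0.167 and 2.13 ± 0.468 CPM (n = 3), a change of 1.27 ± 0.24 with edgeR adjusted p = 0.0104. It was called in all 16 alternatives, at 1.11 to 1.42 and adjusted p up to 0.038.

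PCK2, the mitochondrial carboxykinase (ENSG00000100889, chromosome 14, 24094053 to 24110598), was at 174, 188 and 182 CPM in controls and 191, 203 and 190 CPM in formononetin libraries. The formononetin libraries were all above the controls by a narrow margin. The change of 0.10 ± 0.05 was not called (edgeR adjusted p = 0.188) and was 0.02 under upper quartile scaling. FBP1, the fructose bisphosphatase of liver (ENSG00000165140, chromosome 9, 94603133 to 94640249), had 5, 3 and 3 counts in control and 3, 5 and 0 in formononetin libraries. The 0 in formononetin replicate 3 allows up to 0.0662 CPM, counting error only. At this depth no difference could be shown, and the antisense gene PCAT7, with 2004 counts over the 6 libraries, overlaps its exons. The gluconeogenic members summed to 288 ± 11.9 CPM in controls and 397 ± 10.2 CPM in formononetin libraries (n = 3, exact permutation p = 0.1, two-sided), a ratio of 1.38. Most of this difference lay in PC alone (means of 106 and 200.3 CPM). The means of PCK2, which was not called, were 181 and 194 CPM, and PCK1 and FBP1 added little to either sum.

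The isozymes PCK2 and PCK1 can be compared within a library, free of scaling, by the ratio of their counts. It was 252, 187 and 193 in control and 116.5, 78.9 and 86.8 in formononetin libraries. The groups did not overlap, and the log2 ratio in formononetin libraries minus that in control was -1.17 (exact permutation p = 0.1, two-sided). Per transcript length, PCK2 was still 173 times as abundant as PCK1 in formononetin libraries, against 388 times in control.

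Compared per kilobase of the principal transcript (the longest that GENCODE 29 tags as such), PCK2 was the most abundant member in control at 76.9 ± 2.86 CPM per kb (SD, n = 3). ASS1 followed at 54.3 ± 3.05 CPM per kb, then PC at 25.3 ± 2.25, SLC25A13 at 23.5 ± 1.56 and ASL at 21.8 ± 0.174 CPM per kb. CPS1 stood at 8.61 ± 0.446 CPM per kb, NAGS at 2.05 ± 0.61, ARG1 at 0.945 ± 0.116, PCK1 at 0.203 ± 0.0384 and FBP1 at 0.0755 ± 0.0305 CPM per kb. In control, PC and SLC25A13 overlapped and no other neighbours in this order did. In formononetin libraries the order was the same, but PC (47.8 ± 3.02 CPM per kb) stood clear of SLC25A13 (26.3 ± 0.181 CPM per kb). With the length of all exons merged, SLC25A13 came before PC in control. PCK2 was then at 43.3 and PCK1 at 0.129 CPM per kb in control, so their ratio per length depends on the length taken.

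**Figure D2:**
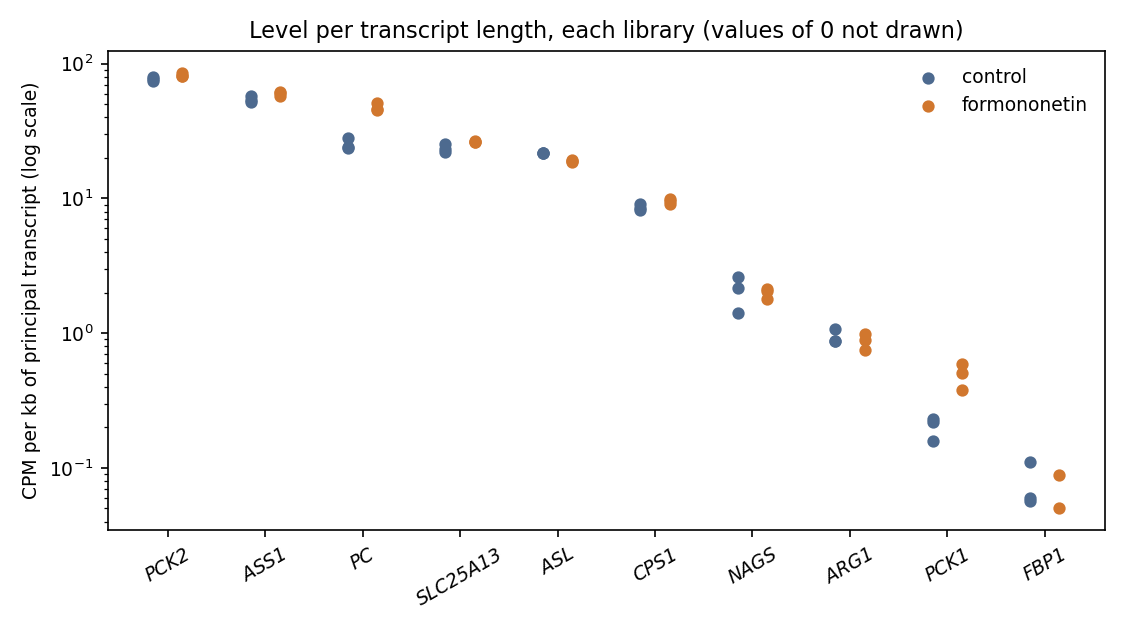
Level of each member in CPM per kb of principal transcript (vertical axis, log scale) in each control (blue) and formononetin (orange) library, ordered by control mean. PC and PCK1 are the members whose groups stand visibly apart, yet PCK1 remains below ARG1 in formononetin libraries (0.491 against 0.877 CPM per kb), and the 0 of FBP1 is not drawn.

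Other genes of these pathways came from a list of 35, drawn up with earlier results of these data known. The shares called therefore describe the list and do not test the pathways. Of its genes, 32 were tested. Of these, 12 rose and 3 fell (edgeR adjusted p under 0.05, against 12.0% raised and 8.71% lowered of all genes tested), with a median log2 fold change of 0.14. In the urea cycle itself, the ornithine carrier SLC25A15 rose from 28.5 ± 1.95 to 39.7 ± 1.87 CPM (0.48 ± 0.07, edgeR adjusted p = 0.00431). OTC, the enzyme between CPS1 and ASS1, had 3, 3 and 0 counts in control and 3, 7 and 2 in formononetin libraries and was not tested. ARG2, the mitochondrial arginase, fell from 26.1 ± 2.52 to 14.7 ± 0.681 CPM (-0.83 ± 0.09, edgeR adjusted p = 0.00113). It shares 904 exon bases with VTI1B on the opposite strand, a gene of 9031 counts over the 6 libraries against 4449 for ARG2. ARG2 counts were 17.5, 21.4 and 15.8 times those of ARG1 in control and 12.6, 9.36 and 11.3 times in formononetin libraries, with no overlap (exact permutation p = 0.1, two-sided, a ratio chosen after the values were seen). ODC1, which uses the ornithine that arginase forms to make polyamines, rose from 136 ± 2.58 to 221 ± 12.4 CPM (0.69 ± 0.05, edgeR adjusted p = 0.000295).

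At the glucose end, G6PC1, the glucose-6-phosphatase of liver, was at 1.09, 0.726 and 1.3 CPM in controls and 2.51, 2.28 and 1.66 CPM in formononetin libraries. It was called (1.05 ± 0.26, edgeR adjusted p = 0.0305), but lost the call without control replicate 1 or 2, without formononetin replicate 1 or 2 and with a replicate block (adjusted p up to 0.0945). SLC37A4, which carries its substrate into the endoplasmic reticulum, was not called (24.2 ± 1.98 against 29 ± 2.72 CPM, edgeR adjusted p = 0.095). It shares 544 exon bases with TRAPPC4 on the opposite strand, with 4610 counts over the 6 libraries against 6021 for SLC37A4. PFKFB1, the liver kinase and phosphatase that sets fructose 2,6-bisphosphate, went from 2.79 ± 0.869 to 4.71 ± 0.239 CPM (0.75 ± 0.22, edgeR adjusted p = 0.0467). Its call was lost in 8 of 16 alternatives, among them every fit without 1 library except that without control replicate 2 (adjusted p up to 0.127). GK, which admits glycerol, fell from 109 ± 3.87 to 75.9 ± 1.16 CPM (-0.52 ± 0.05, edgeR adjusted p = 0.00056), and shares 74 exon bases with the antisense gene GK-AS1. GPT2, the mitochondrial alanine transaminase, fell by 0.25 ± 0.04 on the log2 scale from 251 ± 3.72 CPM in control (edgeR adjusted p = 0.00373).

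SLC25A13 also belongs to the malate-aspartate shuttle, which moves reducing equivalents into mitochondria. Of the 7 shuttle genes in the lists, gathered after their values were seen, 4 rose and none fell, with 3 not called (of all genes tested, 12.0% rose and 8.71% fell). SLC25A12, the carrier form of muscle and brain, rose from 10.3 ± 0.893 to 16.5 ± 1.5 CPM (0.68 ± 0.11, edgeR adjusted p = 0.00479). It shares 181 exon bases with METAP1D on the opposite strand, a gene of 3020 counts over the 6 libraries against 3076 for SLC25A12. The ratio of SLC25A13 to SLC25A12 counts was 7.42, 6.12 and 8.08 in control and 5.60, 4.90 and 4.61 in formononetin libraries, with no overlap (exact permutation p = 0.1, two-sided, also chosen after the values were seen). The mitochondrial transaminase GOT2 rose from 157 ± 5.37 to 237 ± 11.8 CPM (0.60 ± 0.05) and the cytosolic malate dehydrogenase MDH1 from 71.9 ± 0.436 to 100.3 ± 2.41 CPM (0.48 ± 0.04). The oxoglutarate carrier SLC25A11 rose by 0.45 ± 0.09. GOT1 (-0.22 ± 0.07, edgeR adjusted p = 0.0719) and MDH2 (0.19 ± 0.06, edgeR adjusted p = 0.0564) were not called. GOT1 was called lowered in 3 of 16 alternatives, at -0.29 (edgeR adjusted p = 0.0136) without control replicate 1, at -0.30 under upper quartile scaling (adjusted p = 0.0262) and at -0.24 with a filter of 1 CPM in 3 libraries (adjusted p = 0.0493). MDH2 was called raised in 2, under library total scaling and with assembled loci kept. Genes on the opposite strand overlap exons of MDH1 (WDPCP, 191 bases), GOT1 (GOT1-DT, 651 bases), GOT2 (162 bases) and SLC25A11, which shares 244 bases with RNF167, a gene of 7271 counts over the 6 libraries against 5348 for SLC25A11. The citrate carrier SLC25A1 was at 72.0, 64.5 and 89.5 CPM in controls and 120, 147 and 107 CPM in formononetin libraries (0.73 ± 0.15, edgeR adjusted p = 0.0137), a call lost with a replicate block (adjusted p = 0.0501).

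**Figure D3:**
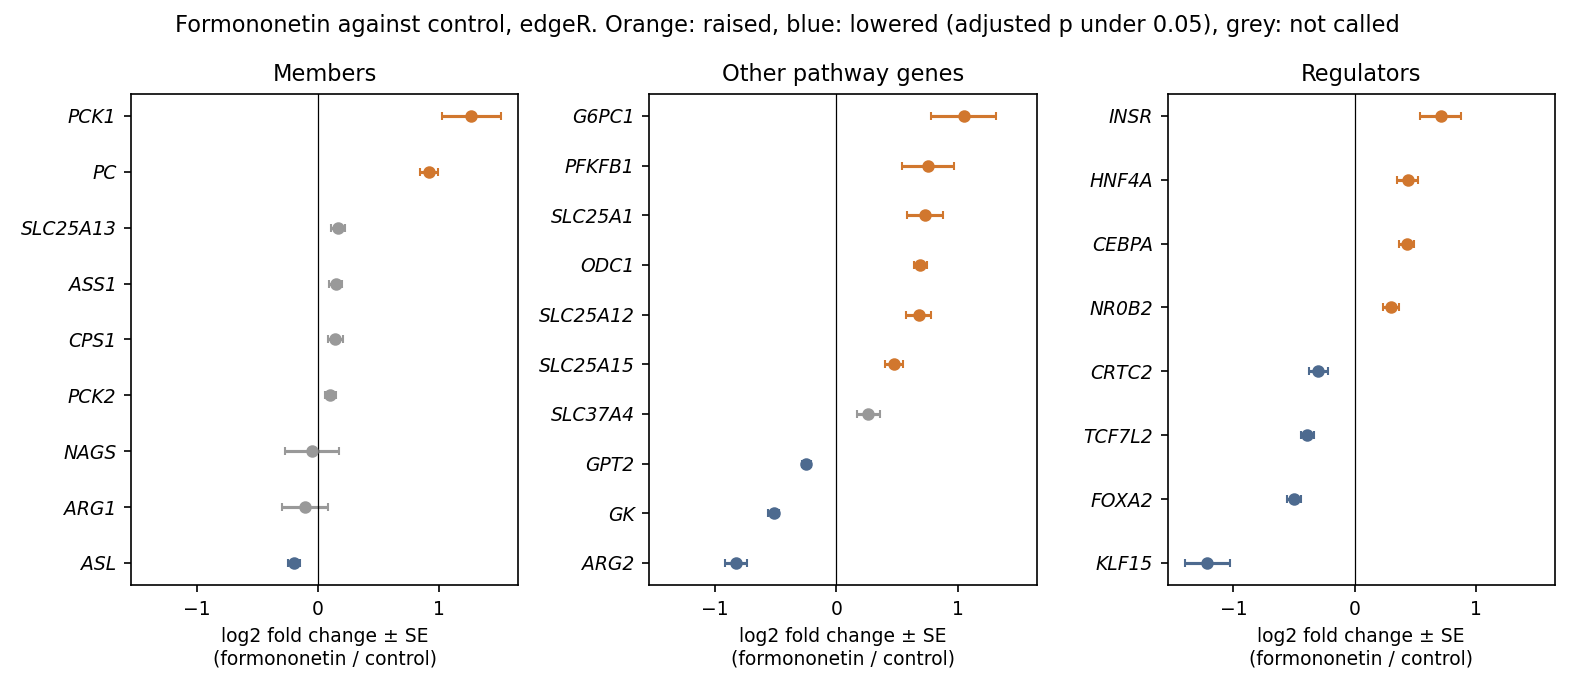
Log2 fold change of formononetin against control ± SE (horizontal axis) for the 9 tested members (left), the named other pathway genes (middle) and the named regulators (right). Raised genes are orange, lowered ones blue and those not called grey, and among the members only PCK1, PC and ASL are coloured.

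Of 20 genes that regulate these pathways, also chosen with earlier results of these data known, 18 were tested. Of these, 4 rose and 7 fell, against 12.0% raised and 8.71% lowered of all genes tested. HNF4A, a nuclear receptor of hepatocyte genes, rose from 185 ± 6.41 to 251 ± 31.3 CPM (0.44 ± 0.09), and CEBPA, a factor that acts on urea cycle and gluconeogenic promoters, from 60.4 ± 1.83 to 81.3 ± 5.24 CPM (0.43 ± 0.06). INSR, the insulin receptor, was at 246, 156 and 157 CPM in controls and 305, 306 and 304 CPM in formononetin libraries (0.71 ± 0.17, edgeR adjusted p = 0.0239). Control replicate 1 was nearer to the formononetin libraries, and without it the INSR change was 0.96, while leaving out any of the other 5 libraries ended the call (adjusted p up to 0.0745). NR0B2 (SHP), a repressor among nuclear receptors, rose by 0.30 ± 0.07, a call lost in 6 alternatives (adjusted p up to 0.0748). KLF15, a factor that promotes amino acid breakdown and gluconeogenesis, fell most, from 4.87, 7.32 and 7.14 CPM to 3.05, 2.57 and 2.72 CPM (-1.21 ± 0.18, edgeR adjusted p = 0.0042). FOXA2, TCF7L2 and CRTC2 changed by -0.50 ± 0.06, -0.39 ± 0.05 and -0.30 ± 0.08. A further 2 that fell, named after their values were seen, were the coactivator PPARGC1A (-0.23 ± 0.06) and FOXO1 (-0.22 ± 0.05), which drive PCK1 and G6PC1 transcription in fasting liver. The calls of CRTC2, PPARGC1A and FOXO1 were lost in 7 to 8 of 16 alternatives each. FOXO1 shares 269 exon bases with LINC00598 on the same strand, and the sum of both changed by -0.25 (edgeR adjusted p = 0.0186). TCF7L2 and CEBPA are overlapped by antisense genes of few counts, and FOXA2 by a gene model without counts.

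PCK1 had the largest change of the called members. Among 10324 other genes whose log2 CPM averaged at least 3, the 3 with the most similar profile over the 6 libraries were MT1X, HKDC1 and CD109, by the root mean square difference of log2 CPM centred on each gene's mean (0.14, 0.18 and 0.19). The 6 libraries differ mainly by group, so likeness of this kind reflects mostly a similar step between groups. MT1X went from 7.99 ± 0.904 to 17.4 ± 3.2 CPM, HKDC1 from 37 ± 3.69 to 84.9 ± 5.01 CPM and CD109 from 20.4 ± 1.62 to 44 ± 2.59 CPM.

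Without control replicate 1, the library apart on the second component, PC changed by 0.88 (edgeR adjusted p = 0.00224) and PCK1 by 1.12 (edgeR adjusted p = 0.032).

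**Figure D4:**
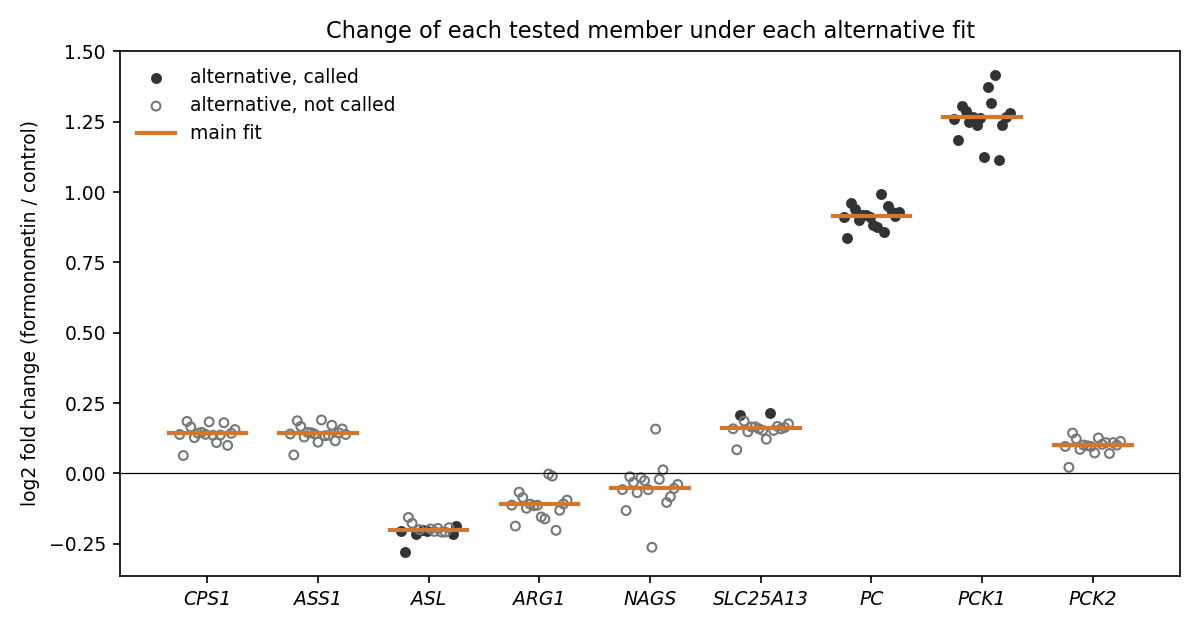
Log2 fold change of formononetin against control (vertical axis) for each tested member under each alternative fit (points, filled where adjusted p was under 0.05) and as reported (orange line). All points of PC and PCK1 are filled and lie above 0.8, those of ASL lie below 0 with 7 of 16 filled, and NAGS falls on both sides of 0.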

How the data were processed

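RNA was sequenced from 6 HepG2 libraries. Per the labels' protocols, each was built from 500 ng of RNA with a strand-specific mRNA kit. The table that the authors deposited gives raw counts for each gene as whole numbers. The submitters' processing notes name STAR 2.5.3a, StringTie 1.3.1c and GRCh38 without their roles, and which program counted reads, with which annotation and strand option, is not given in the sources used here. Exon overlaps on either strand are therefore stated for members and for the pathway and regulator genes described. Of 62729 rows, 2165 were assembled loci without a gene name (3.82 to 5.62% of counts) and were left out. The value 3 was more frequent than 2 in every library, so 1 count may not be 1 read. Whether replicates were separate cultures is not in the labels, and p-values then reflect only how these libraries spread, perhaps for technical reasons. No libraries held identical counts.

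Low-count genes were removed with filterByExpr, libraries were scaled by TMM, and groups were compared with edgeR 4.0.16 in R 4.3.3 (quasi-likelihood F test, group only, tested on simulated data). Standard errors are the log2 fold change over the square root of F. Transcript lengths and coordinates are from GENCODE 29 (GRCh38), promoters from RefSeq (GRCh38.p14). Named pathway and regulator genes were at most the 5 largest called changes per direction and list with a mean of 1 CPM or more, and OTC, SLC25A15, ARG2, G6PC1, SLC37A4 and SLC25A12 whatever their values. Of the regulators, 1 is counted but not reported here. Genes most like PCK1 were sought where log2 CPM (prior count 2) averaged at least 3. Members and lists were chosen with earlier results of these data known. Alternatives were DESeq2 1.42.0, voom of limma 3.58.1, RLE, upper quartile and library total scaling, other filters, a replicate block, each library left out, and same-strand overlaps of 50 bases or more summed. Keeping assembled loci and summing ASS1 with its copies were added after the data were seen.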

Additional observations from a re-analysis of the deposited data

How the results depend on the processing

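PC and PCK1 were called raised, and CPS1, ASS1, ARG1, NAGS and PCK2 not called, in all alternatives run for them. Members lowered numbered 0 in place of 1 under library total scaling, without a low-count filter, with a replicate block and in every fit without 1 library, all through ASL, and members raised numbered 2 to 3 without 1 library. Other pathway genes lowered numbered 5 in place of 3 under upper quartile scaling. Without 1 library, 8 to 10 of them were raised (12 with all libraries) and 3 to 4 lowered. Regulators lowered numbered 4 in place of 7 under library total scaling, without a low-count filter and with a replicate block, and 3 to 6 without 1 library, where 2 to 4 were raised. The cause was not tested. NAGS ranged from -0.26 to 0.16 without 1 library, changing sign at 0.16 without control replicate 2 and at 0.01 without formononetin replicate 1. With a replicate block other pathway genes raised numbered 8 in place of 12. Same-numbered libraries did not deviate together (correlations from -0.02 to 0.01 across genes), and not every library correlated best with its own number, so the number is not taken as a pairing. The log2 ratio of PCK2 to PCK1 ranged from -1.33 to -1.03 without 1 library. Without 1 library, the difference of summed levels was 16.6 to 22.2 CPM for the urea cycle members and 102 to 114 CPM for the gluconeogenic ones. Under upper quartile scaling these were 3.02 CPM (exact permutation p = 0.4) and 89.7 CPM, and under library total scaling 27.7 and 119 CPM. The median of all genes was -0.09 under upper quartile and 0.03 under library total scaling. Depth limits FBP1 and OTC, and makes the folds of PCK1 and G6PC1 the least precise.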
